A study of Homo sapiens and Mus musculus with 16 samples.

Results

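Most RNF and TRIM genes encode RING finger proteins that act as E3 ubiquitin ligases. Their transcripts were compared between sorted P-bodies and cytoplasm in 4 cell types. Some TRIM members lack a RING, and the word ligases below is used for all members. Members were taken by name: RNF or TRIM followed by a number, with at most a letter A or B after an RNF number or A, B or C after a TRIM number, ignoring case in mouse. This gave 147 of 22286 genes in the human table, 79 RNF and 68 TRIM, and 124 of 15881 genes in the mouse table, 72 RNF and 52 TRIM. A member entered the main counts of a cell type when its mean over the 4 libraries of that cell type was at least 1 CPM, the count of a gene scaled to a common library total. That left 106 members of 146 tested in HEK293T, 108 of 145 in liver bud progenitors, 111 of 147 in neurons and 103 of 124 in mouse embryonic stem cells (mESC).

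A ubiquitin ligase brings a substrate together with a ubiquitin-loaded E2 enzyme, and its RING domain holds that E2. The name RNF covers many unrelated architectures, among them membrane proteins of the endoplasmic reticulum and endosomes, RING-between-RING enzymes that pass ubiquitin through a catalytic cysteine, and nuclear ligases for histones. Most TRIM proteins share a RING, B-boxes and a coiled coil, followed by a domain that sets the target. Examples are SPRY in antiviral members, NHL repeats in RNA-binding members and a PHD finger with a bromodomain in chromatin members. P-bodies are cytoplasmic condensates that hold translationally repressed mRNA together with decapping and microRNA silencing factors.

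P-bodies were sorted by fluorescence as GFP-LSM14A particles from the fraction used as the cytoplasm control, a pellet spun from lysate after the nuclei were removed. Each cell type gave 2 P-body and 2 cytoplasm libraries. All lines carried an LSM14A-GFP fusion, controls included: the human embryonic kidney line HEK293T-LSM14a-GFP and the mouse line KH2-LSM14a-GFP, which was grown in serum-LIF, received it by lentivirus from an EF1a promoter, and the human embryonic stem cell line UCLA4-LSM14a-GFP received it at the AAVS1 locus in a tetracycline-controlled vector. Liver bud progenitors and neurons at day 20 were both made from UCLA4-LSM14a-GFP. HEK293T and mESC libraries were labelled total RNA and random primed, while liver bud progenitor and neuron libraries were labelled polyA RNA. The library kind and the cell type cannot be told apart where HEK293T or mESC are set against the polyA cells, so such values are set side by side without a test. The labels do not say that replicate libraries came from separate cultures, so p-values measure the spread between these libraries, which may be technical.

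Library totals ran from 6368953 to 17972284 counts, and 3 counts, used as the floor, equalled 0.167 to 0.471 CPM. Members together held 4459 to 6670 CPM per library. Replicates of a group correlated over members with a Spearman rho of 0.988 to 0.995, except the neuron P-body libraries at 0.961. Those libraries also had the largest chi-square between replicates, 29.0 per gene against 2.19 to 7.03 in the other groups. Among markers of the labelled cells, the 6 neuron genes summed to 9202 and 9749 CPM in neuron cytoplasm and to 181 CPM in both liver bud progenitor cytoplasm libraries. The 6 liver bud genes summed to 367 and 347 CPM in liver bud progenitor cytoplasm, with APOB at 299 ± 14.6 CPM (SD, n = 2), AFP at 8.04 ± 0.174 CPM and ALB at 0 in both libraries. Pluripotency markers were present there too: POU5F1, NANOG and LIN28A summed to 780.0 and 775 CPM in cytoplasm and 851 and 894 CPM in P-bodies of liver bud progenitors. Most of the sum was LIN28A: in that cytoplasm it stood at 658 ± 1.27 CPM, POU5F1 at 85.8 ± 2.13 CPM and NANOG at 34.4 ± 2.38 CPM (SD, n = 2). The 4 mESC markers summed to 2074 and 2049 CPM in mESC cytoplasm, and no marker list was used for HEK293T.

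The first question was how many ligase transcripts were held in P-bodies in each cell type. In HEK293T, 47 members of at least 1 CPM passed the test as enriched in P-bodies and 28 as depleted (edgeR quasi-likelihood test, adjusted p below 0.05), where 32% of all genes of at least 1 CPM were enriched and 38.1% depleted. The median log2 change, P-body minus cytoplasm, was 0.23 over members and -0.13 over all genes of at least 1 CPM. As shares of the members, 44.3% were enriched and 26.4% depleted. With library totals in place of TMM normalization the split was 40 against 36.

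In mESC 42 members were enriched and 14 depleted, 40.8% and 13.6% of the members, beside 33.5% and 20.4% of all genes of at least 1 CPM. The median was 0.25 over members and 0.03 over all genes. Normalization mattered most here: library totals alone moved the median of all genes by -0.40 on the log2 scale and gave 29 enriched against 34 depleted members, so mESC changes below about that size are relative to the TMM scale. In liver bud progenitors 35 members were enriched and 21 depleted, 32.4% and 19.4% of the members, beside 32.2% and 24.6% of all genes. The medians were 0.05 and 0.04. Library totals gave 31 against 30 there. In neurons 23 members were enriched and 20 depleted, 20.7% and 18.0% of the members, beside 20% and 21% of all genes. The medians were -0.01 and -0.10. Library totals gave 30 against 15 in neurons, and leaving out the second neuron cytoplasm library left 13 depleted members. A single fit of all human libraries gave 29 enriched and 34 depleted members in neurons.

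Counting all tested members regardless of level gave 47 enriched and 29 depleted in HEK293T (19.3% and 22.8% of all genes tested), 36 and 21 in liver bud progenitors (21.4% and 17.1%), 24 and 20 in neurons (14.6% and 14.1%) and 42 and 17 in mESC (25.8% and 20.6%). The level filter uses the mean of both fractions, so a member can pass through the fraction in which it is high. This was the case for 12 members in neurons, 4 in HEK293T, 2 in liver bud progenitors and 2 in mESC. Any calls among them, for example TRIM34 in neurons, are part of the counts above. In HEK293T, the members nearest the limit were TRIM7 at 0.870 CPM and RNF207 at 1.09 CPM. They were RNF175 at 0.963 and TRIM67 at 1.02 CPM in liver bud progenitors, TRIM14 at 0.953 and TRIM72 at 1.09 CPM in neurons, and Trim60 at 0.947 and Trim66 at 1.03 CPM in mESC. In HEK293T 32 of 66 RNF and 15 of 40 TRIM genes were enriched, beside 32% of all genes of at least 1 CPM. The counts were 23 of 64 and 12 of 44 in liver bud progenitors, beside 32.2%, and 12 of 63 and 11 of 48 in neurons, beside 20%. They were 28 of 67 and 14 of 36 in mESC, beside 33.5%. Depleted were 19 RNF and 9 TRIM genes in HEK293T, beside 38.1% of all genes, and 10 and 11 in liver bud progenitors, beside 24.6%. Neurons had 12 and 8, beside 21%, and mESC 10 and 4, beside 20.4%. The difference between RNF and TRIM genes was not tested.

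**Figure D1:**
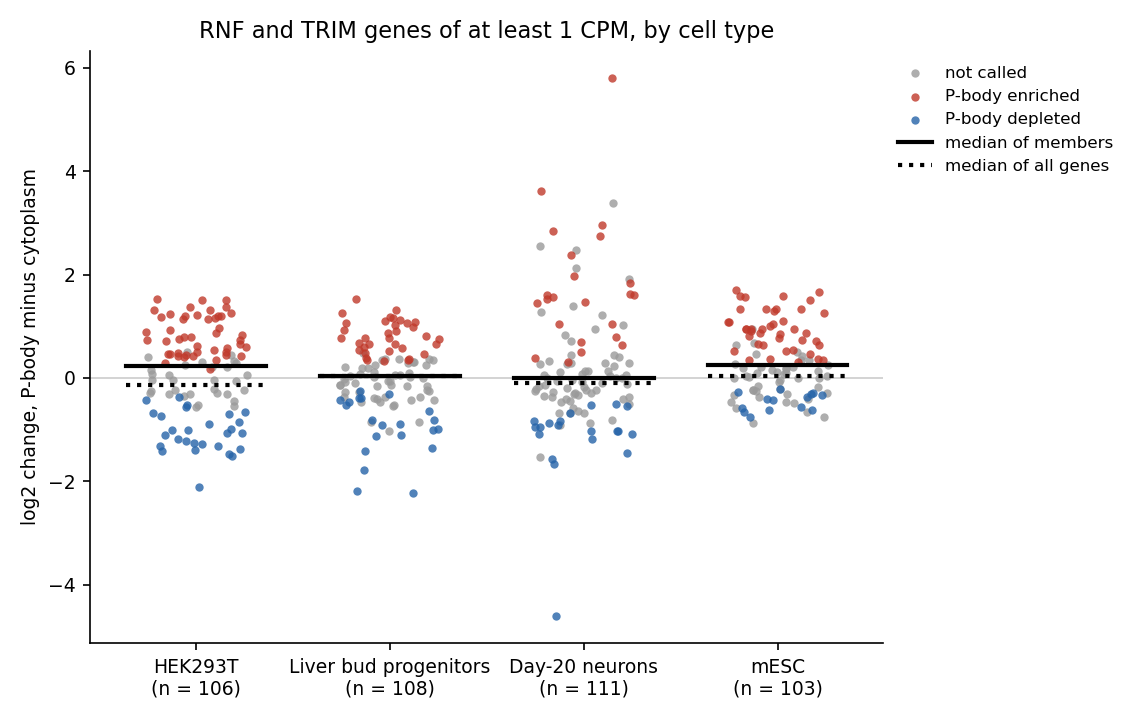
Log2 change, P-body minus cytoplasm (y axis), of each RNF or TRIM gene of at least 1 CPM in each cell type (x axis). Each point is a gene from 2 P-body and 2 cytoplasm libraries, coloured by its edgeR call; the solid line is the median of members (0.23, 0.05, -0.01 and 0.25) and the dotted line that of all genes (-0.13, 0.04, -0.10 and 0.03). The neuron points spread most widely, and the outermost of them, TRIM10 and TRIM17, rest on 0 or 1 counts per library in 1 fraction.

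Of 89 members of at least 1 CPM in all 4 cell types, 12 were enriched in every one, beside 14% of 9191 genes matched by symbol, and 5 were depleted in every one, beside 7.19%. Both shares of the members were close to those of all genes, so a call alike in all 4 cell types is not particular to the ligases. The enriched members were RNF6, RNF19A, RNF20, RNF34, RNF111, RNF146, RNF168, RNF169, TRIM2, TRIM23, TRIM36 and TRIM59. The depleted members were RNF31, RNF44, RNF123, TRIM27 and TRIM28. All 12 remained enriched under every other normalization, test and filter tried, with RNF168 and RNF169 lost when either neuron cytoplasm library was left out and TRIM2 when the second was. The depleted set was less settled: without the second liver bud progenitor P-body library it fell to 3 members, RNF44 was lost without the second HEK293T cytoplasm library, RNF123 without the first mESC P-body library, RNF31 without the second mESC P-body or cytoplasm library, and TRIM27 without the second neuron cytoplasm library or either of 2 further liver bud progenitor libraries; with DESeq2 only RNF44 and TRIM28 were left, and with library totals it held 10.

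TRIM59, a ligase anchored in the endoplasmic reticulum membrane (chr3:160432445-160485773, minus strand, ENSG00000213186.8 in hg38), was the most enriched of these by mean change. It stood at 153 and 150.0 CPM in P-bodies and 75.5 and 69.0 CPM in cytoplasm in HEK293T, with a log2 change of 1.20 ± 0.0741 (SE) and an edgeR adjusted p = 1.39e-21. In neurons it stood at 39.9 and 43.1 CPM in P-bodies and 4.88 and 5.41 CPM in cytoplasm, and in mESC at 612 and 602 CPM in P-bodies and 328 and 307 CPM in cytoplasm. The P-body libraries were above the cytoplasm libraries in each cell type, by a log2 change of 2.85 in neurons, 1.18 in liver bud progenitors, 1.34 in mESC and 1.20 in HEK293T. TRIM23, which carries an ARF-like GTPase domain behind its RING and B-boxes, had a log2 change of 1.84 in neurons, 1.53 in liver bud progenitors, 1.56 in mESC and 0.86 in HEK293T. TRIM36, a COS box protein that binds microtubules, had 1.57 in neurons, 1.06 in liver bud progenitors, 1.70 in mESC and 1.37 in HEK293T.

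RNF20, which forms the ligase for histone H2B with RNF40 (chr9:101533853-101563344, plus strand, ENSG00000155827.12), was enriched in every cell type. In HEK293T it stood at 253 and 243 CPM in P-bodies and 115 and 111 CPM in cytoplasm, with a log2 change of 1.26 ± 0.0649 (SE) and an edgeR adjusted p = 3.15e-25. In neurons it stood at 305 and 291 CPM in P-bodies and 93.3 and 98.0 CPM in cytoplasm, with a log2 change of 1.47 ± 0.0970 (SE) and an edgeR adjusted p = 1.73e-07. The log2 change was 1.47 in neurons, 1.08 in liver bud progenitors, 1.25 in mESC and 1.26 in HEK293T, with no overlap between the fractions in any cell type. RNF34, a ligase linked to caspase turnover, was the member with the smallest p in HEK293T, at 339 and 333 CPM in P-bodies and 129.6 and 130.2 CPM in cytoplasm. Its log2 change was 0.79 in neurons, 0.65 in liver bud progenitors, 0.78 in mESC and 1.501 in HEK293T. RNF111, which amplifies TGF-beta signalling by degrading its inhibitors, was led by neurons, at 315 and 318 CPM in P-bodies and 88.6 and 94.0 CPM in cytoplasm (edgeR adjusted p = 6.24e-08).

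Of the other members enriched everywhere, RNF146, which recognises poly(ADP-ribosyl)ated substrates such as axin, had the smallest range between cell types on the TMM scale. Its log2 change was 1.04 in neurons, 0.91 in liver bud progenitors, 0.95 in mESC and 0.80 in HEK293T. RNF6 had a log2 change of 1.97 in neurons, 0.92 in liver bud progenitors, 0.95 in mESC and 0.43 in HEK293T, and RNF19A, a RING-between-RING enzyme, had 1.54 in neurons, 0.68 in liver bud progenitors, 0.94 in mESC and 0.73 in HEK293T. The DNA damage ligases RNF168 and RNF169, which act on nucleosomes at double-strand breaks, ranged from 0.44 for RNF169 in HEK293T to 0.76 for RNF168 in liver bud progenitors. TRIM2, an NHL protein of neurons, had its smallest change on the TMM scale in neurons, 0.38 ± 0.0945 (SE). It stood there at 353 and 323 CPM in P-bodies and 238 and 226 CPM in cytoplasm.

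TRIM28, the corepressor recruited by KRAB zinc finger proteins (chr19:58544064-58550722, plus strand, ENSG00000130726.12), was the member with the smallest p among those depleted in HEK293T. It stood there at 28.0 and 27.0 CPM in P-bodies and 84.97 and 87.7 CPM in cytoplasm, with a log2 change of -1.52 ± 0.0958 (SE) and an edgeR adjusted p = 2.83e-21. Its log2 change was -1.18 in neurons, -0.90 in liver bud progenitors, -0.44 in mESC and -1.52 in HEK293T, and every P-body library lay below every cytoplasm library of its cell type. RNF123, a ligase for the cell cycle inhibitor p27, had -1.57 in neurons, -1.01 in liver bud progenitors, -0.76 in mESC and -1.33 in HEK293T. RNF31, the catalytic subunit that builds linear ubiquitin chains, had -1.46 in neurons, -0.46 in liver bud progenitors, -0.28 in mESC and -0.85 in HEK293T, RNF44 had -0.95 in neurons, -1.13 in liver bud progenitors, -0.31 in mESC and -0.65 in HEK293T, and TRIM27 had -0.84 in neurons, -0.39 in liver bud progenitors, -0.41 in mESC and -0.68 in HEK293T. On the TMM scale, the depletions in mESC were the smallest of the 4 cell types for RNF31, RNF44, RNF123 and TRIM28. This order can change with normalization and sets different library kinds side by side. Library totals moved the median of all genes by -0.40 in mESC and -0.13 in HEK293T. The shift was -0.18 in liver bud progenitors and 0.17 in neurons.

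**Figure D2:**
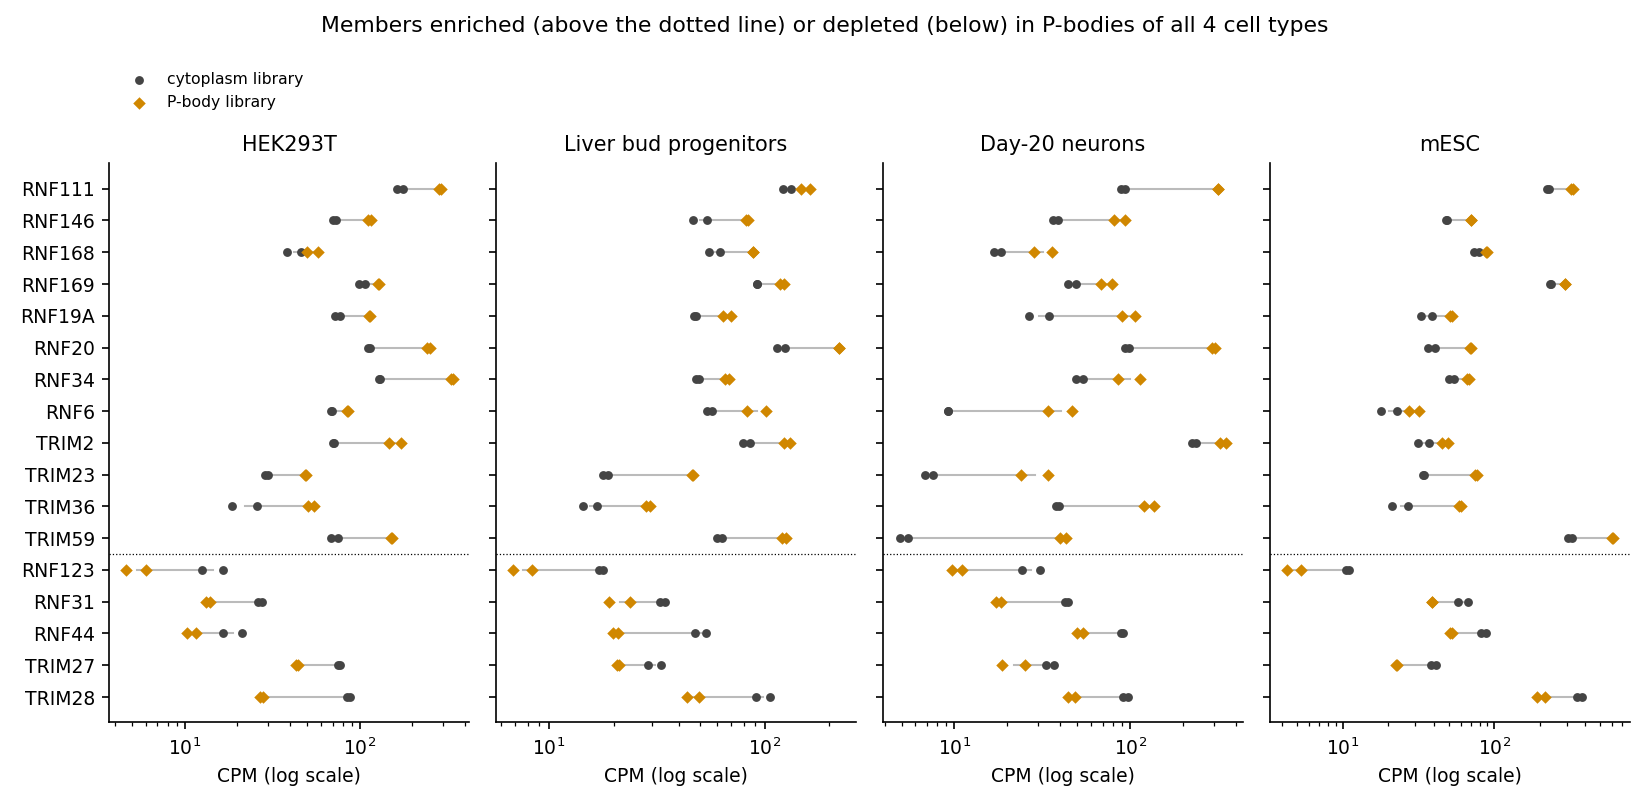
CPM on a log scale (x axis) of the 17 members called in the same direction in all 4 cell types (y axis), with 1 panel per cell type, each on its own range. Each circle is a cytoplasm library and each diamond a P-body library, 2 of each, joined by a line between the means; TRIM59 in neurons shows the widest gap, 39.9 and 43.1 CPM against 4.88 and 5.41 CPM.

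Enriched and depleted members differed in base composition. The following windows show it at the scale of codons, for the enriched and the depleted members of the sets above with the largest mean change. Each window is 60 coding bases within an exon, the first such window in frame whose share of G or C at the third codon positions (GC3) is nearest that of the whole coding sequence, read 5′ to 3′ from GENCODE 44 on hg38, with the third codon positions in capitals. The TRIM59 window (chr3:160439019-160439078, minus strand) holds 6 G or C among its 20 codons at the third base and the TRIM23 window (chr5:65618175-65618234, minus strand) holds 7. The RNF123 window (chr3:49691166-49691225, plus strand) holds 15 and the TRIM28 window (chr19:58544833-58544892, plus strand) holds 14.
TRIM59: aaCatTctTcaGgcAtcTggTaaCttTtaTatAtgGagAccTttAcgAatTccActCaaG
TRIM23: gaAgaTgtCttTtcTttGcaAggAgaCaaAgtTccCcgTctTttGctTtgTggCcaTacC
RNF123: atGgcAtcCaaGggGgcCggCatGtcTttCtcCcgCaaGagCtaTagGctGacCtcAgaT
TRIM28: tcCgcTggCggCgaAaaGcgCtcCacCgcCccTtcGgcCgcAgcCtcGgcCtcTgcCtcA

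Over the whole coding sequence GC3 was 27.6% in TRIM59 and 34.3% in TRIM23, against 75.2% in RNF123 and 70.7% in TRIM28. The median GC3 in HEK293T was 50.4% in enriched, 63.1% in uncalled and 72.4% in depleted members. Liver bud progenitors gave 43.8%, 62.8% and 70.7%, neurons gave 50%, 59.96% and 71.8%, and mESC gave 51.8%, 65.0% and 68.5%. The order was the same in the 4 cell types. The same order held over all genes of at least 1 CPM, so it is not particular to the ligases.

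Across members of at least 1 CPM, Spearman's rho between GC3 and the log2 change was -0.57 in HEK293T (n = 106), -0.65 in liver bud progenitors (n = 108), -0.53 in neurons (n = 111) and -0.60 in mESC (n = 103). Over all genes of at least 1 CPM with a coding sequence it was -0.51, -0.57, -0.48 and -0.52. GC content of the 3′ untranslated region gave -0.57, -0.68, -0.53 and -0.55 over members, and GC content of the whole transcript gave -0.62, -0.74, -0.57 and -0.61. Transcript length gave values near 0 except in HEK293T, 0.21, 0.03, 0.06 and -0.08. These are descriptions across genes that share libraries, and each cell type had libraries of 1 kind only.

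**Figure D3:**
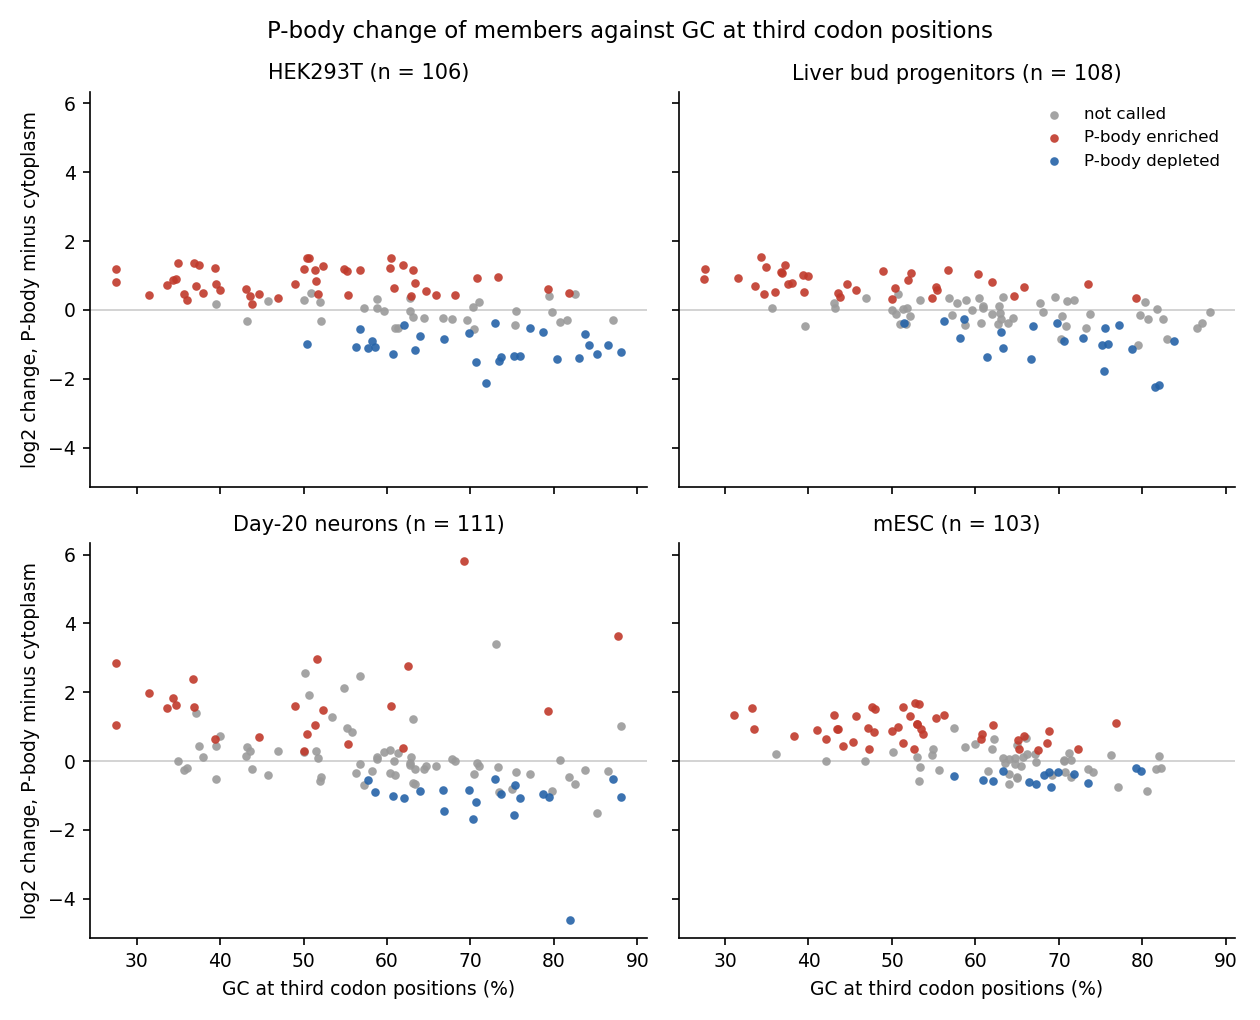
Log2 change, P-body minus cytoplasm (y axis), against the percentage of G or C at the third codon positions (x axis) for members of at least 1 CPM, 1 panel per cell type. Each point is a gene, coloured by its edgeR call; enriched members lie towards low and depleted members towards high GC3, with a Spearman rho of -0.57, -0.65, -0.53 and -0.60.

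By role, of 6 chromatin and DNA damage ligases, 5 were enriched and 1 depleted in HEK293T, 4 and 1 in liver bud progenitors, 3 and 1 in neurons, and 5 and none in mESC, with medians of 0.47, 0.67, 0.47 and 0.67. Of all genes of at least 1 CPM, 32% were enriched and 38.1% depleted in HEK293T and 32.2% and 24.6% in liver bud progenitors. The shares were 20% and 21% in neurons and 33.5% and 20.4% in mESC. They apply to every role list below, and the lists were chosen with earlier results of these data known. RNF2, the catalytic subunit of Polycomb complex PRC1 for histone H2A, stood at 96.6 and 96.9 CPM in P-bodies and 43.3 and 42.3 CPM in cytoplasm in HEK293T, with a log2 change of 1.31 ± 0.0867 (SE) and an edgeR adjusted p = 2.88e-20. In mESC it stood at 206 and 212 CPM in P-bodies and 97.2 and 97.6 CPM in cytoplasm, with a log2 change of 1.51 ± 0.0551 (SE) and an edgeR adjusted p = 3.37e-17. In neurons its change was 0.45 ± 0.298 (SE) and did not pass the test. RNF40, the partner of RNF20, was the exception: it was depleted in the 3 human cell types, by -0.38 in HEK293T, -0.81 in liver bud progenitors and -0.51 in neurons, and enriched in mESC by 0.52. Library totals ended the calls in neurons and mESC, leaving out the second neuron cytoplasm library ended the neuron call, and a single fit of all human libraries ended that in HEK293T. RNF20 and RNF40 had changes of opposite sign in each human cell type. In liver bud progenitors RNF40 stood at 21.8 and 20.8 CPM in P-bodies and 41.5 and 43.5 CPM in cytoplasm.

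Of the 8 RING-between-RING members, 7 were enriched and 1 was depleted in HEK293T. The counts were 4 and 2 in liver bud progenitors, 2 and 1 in neurons, and 2 and 1 in mESC. RNF14, known as a coactivator of the androgen receptor, stood at 49.8 and 61.1 CPM in P-bodies and 17.1 and 15.6 CPM in cytoplasm in neurons (edgeR adjusted p = 3.15e-05) and had a log2 change of 1.595 in neurons, 1.13 in liver bud progenitors, 0.12 in mESC and 0.75 in HEK293T. Its mESC value did not pass the test and turned negative with library totals. RNF216, which builds ubiquitin chains on Toll-like receptors and RIPK1, was enriched in HEK293T at 181 and 176 CPM in P-bodies and 107 and 113 CPM in cytoplasm and depleted in liver bud progenitors at 54.6 and 58.6 CPM in P-bodies and 83.8 and 84.4 CPM in cytoplasm. RNF31 was depleted in each cell type. RBCK1, its partner in the linear chain complex and not a member by name, had -0.59 in HEK293T, where it was depleted, and -0.30, -0.76 and -0.13 in liver bud progenitors, neurons and mESC, where it did not pass the test. RNF144B had a log2 change of 1.17 ± 0.116 (SE) and an edgeR adjusted p = 2.26e-13 in HEK293T, and RNF19B a log2 change of 0.65 ± 0.132 (SE) and an edgeR adjusted p = 3e-05.

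Both SUMO-targeted ligases, RNF4 and RNF111, which bind SUMO chains and add ubiquitin to them, were enriched in HEK293T, liver bud progenitors and mESC, with the liver bud progenitor call of RNF4 lost with library totals. RNF4 stood at 325 and 298 CPM in P-bodies and 147 and 151 CPM in cytoplasm in HEK293T, with a log2 change of 1.19 ± 0.0623 (SE) and an edgeR adjusted p = 6.48e-25. In neurons it stood at 96.9 and 93.1 CPM in P-bodies and 70.0 and 70.5 CPM in cytoplasm, and its log2 change of 0.27 ± 0.121 (SE) did not pass the test. Of the 4 ligases with zinc fingers and a ubiquitin-interacting motif, RNF138, which acts in DNA end resection, had 1.39 in neurons, 1.31 in liver bud progenitors, 0.74 in mESC and 0.71 in HEK293T, enriched except in neurons, with the mESC call lost with library totals. RNF125 was depleted in HEK293T at 9.35 and 8.96 CPM in P-bodies and 21.3 and 18.4 CPM in cytoplasm and enriched in mESC at 272 and 273 CPM in P-bodies and 150.1 and 135 CPM in cytoplasm, with values under 10 CPM in the other cells. Rnf114 was depleted in mESC at 18.3 and 20.1 CPM in P-bodies and 37.1 and 40.8 CPM in cytoplasm.

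The 10 ligases of the endoplasmic reticulum membrane, which serve protein quality control and sterol or calcium channel turnover, were called in both directions except in liver bud progenitors. In HEK293T 3 were enriched and 3 depleted, in liver bud progenitors 4 and none, in neurons 1 and 3, and in mESC 5 and 1. Besides TRIM59, RNF170, a ligase for the inositol trisphosphate receptor, was enriched in HEK293T, liver bud progenitors and mESC, by 0.50, 0.77 and 1.33. Its HEK293T call was lost without either second HEK293T library and in a single fit of all human libraries, and its liver bud progenitor call without the second cytoplasm library. Trim13 in mESC stood at 104 and 101 CPM in P-bodies and 45.9 and 44.6 CPM in cytoplasm, with a log2 change of 1.58 ± 0.0740 (SE) and an edgeR adjusted p = 3.88e-15. RNF26 was depleted in HEK293T at 25.6 and 19.0 CPM in P-bodies and 64.2 and 61.6 CPM in cytoplasm, in neurons and in mESC; its neuron call was lost without the first cytoplasm library and its mESC call with DESeq2 or without either second library. RNF5, which acts on misfolded membrane proteins, was depleted in HEK293T and neurons. The neuron call of RNF5, -0.54 ± 0.185 (SE) with an edgeR adjusted p = 0.0446, was lost with both other normalizations, DESeq2, the stricter filter and without either neuron cytoplasm library. Rnf139 and Rnf185, enriched in mESC by 0.36 and 0.34, turned negative with library totals and lost the call with DESeq2 and without the first mESC P-body library; their CPM overlapped between the fractions.

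Of 9 RNF genes with a protease-associated domain, which sit in the membranes of endosomes and the cell surface, 7 reached 1 CPM in HEK293T, where 2 were enriched and 2 depleted. RNF13 was enriched in 3 cell types. It stood at 106 and 102 CPM in P-bodies and 42.4 and 45.8 CPM in cytoplasm in HEK293T, at 54.9 and 59.2 CPM in P-bodies and 26.1 and 28.0 CPM in cytoplasm in liver bud progenitors and at 278 and 269 CPM in P-bodies and 148 and 141 CPM in cytoplasm in mESC. No P-body library overlapped a cytoplasm library in these cells, while in neurons, at 16.9 and 18.2 CPM in P-bodies and 13.9 and 17.5 CPM in cytoplasm, the change was 0.00 ± 0.251 (SE). RNF167, an endosomal ligase, went the other way, by -1.07 in HEK293T, -0.25 in liver bud progenitors and -0.91 in neurons; the liver bud progenitor call was lost with DESeq2, in a single fit of all human libraries and without any of 3 libraries. RNF43, which removes Frizzled receptors from the cell surface, was enriched in HEK293T at 4.51 and 4.23 CPM in P-bodies and 1.93 and 2.32 CPM in cytoplasm.

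Among the antiviral and innate immune TRIM genes, 9 of 11 reached 1 CPM in HEK293T, where 3 were enriched and 3 depleted. The counts were 2 and 2 in liver bud progenitors, 2 and none in neurons, and 3 and 1 in mESC. TRIM21, the cytosolic antibody receptor, was enriched in HEK293T at 17.0 and 14.5 CPM in P-bodies and 7.37 and 4.56 CPM in cytoplasm, in neurons at 7.41 and 7.71 CPM in P-bodies and 1.92 and 2.51 CPM in cytoplasm and in mESC at 6.06 and 6.44 CPM in P-bodies and 4.42 and 3.56 CPM in cytoplasm. Its neuron call, with an edgeR adjusted p = 0.0217, was lost without either neuron cytoplasm library. TRIM25, a ligase for the RNA sensor RIG-I, was depleted by -0.53 in HEK293T, -0.44 in liver bud progenitors and -0.36 in mESC. TRIM6 was enriched in HEK293T, liver bud progenitors and mESC, by 1.14, 0.66 and 0.37, the last turning negative with library totals; its mESC P-body libraries lay below its cytoplasm libraries in CPM. TRIM34, 1 of the 2 enriched in neurons, stood there at 2.43 and 7.29 CPM in P-bodies and 0.697 and 0.387 CPM in cytoplasm. It reached a mean of 1 CPM only through its P-body libraries. Its call was lost without the second P-body or the second cytoplasm library. TRIM6 and TRIM34 lie side by side and share a readthrough transcript, so reads of the pair are uncertain. TRIM5, which restricts retroviral capsids, and TRIM22 did not pass the test in any human cell type.

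The TRIM genes with a PHD finger and a bromodomain, readers of histone marks, went apart. TRIM33, which acts on SMAD4, stood at 576 and 575 CPM in P-bodies and 479.9 and 466 CPM in cytoplasm in HEK293T and was enriched by 0.41 there, 0.49 in liver bud progenitors and 0.45 in mESC, where library totals ended the call. TRIM24, a regulator of p53, was enriched in liver bud progenitors by 0.36 ± 0.0572 (SE) and weakly in HEK293T by 0.17 ± 0.0661 (SE), a call lost with the replicate number as a block, with library totals and without any of 3 libraries. TRIM28 was depleted throughout. TRIM66 was depleted in liver bud progenitors at 4.40 and 3.41 CPM in P-bodies and 9.89 and 12.9 CPM in cytoplasm. Of the TRIM genes that lack a RING, TRIM44 had changes between -0.03 and 0.27 and passed the test nowhere, although in mESC library totals gave -0.33 with an edgeR adjusted p of 0.000789.

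Of 7 COS box TRIM genes, whose products bind microtubules, 4 reached 1 CPM in each human cell type and 2 in mESC. In HEK293T TRIM9 and TRIM36 were enriched. TRIM9 stood at 46.8 and 45.5 CPM in P-bodies and 28.4 and 23.5 CPM in cytoplasm there and at 28.1 and 31.9 CPM in P-bodies and 29.7 and 31.0 CPM in cytoplasm in neurons, where its change of -0.18 ± 0.187 (SE) did not pass the test. TRIM67, which binds the netrin receptor DCC, was depleted in neurons at 109 and 125 CPM in P-bodies and 215 and 212 CPM in cytoplasm, with a log2 change of -1.03 ± 0.105 (SE) and an edgeR adjusted p = 7.27e-06. TRIM46, which organises microtubules of the axon initial segment, was depleted in liver bud progenitors at 0.838 and 2.34 CPM in P-bodies and 5.34 and 7.25 CPM in cytoplasm and in neurons at 35.1 and 24.5 CPM in P-bodies and 42.8 and 42.6 CPM in cytoplasm. The neuron call was lost with library totals and without either cytoplasm library. TRIM54, TRIM55 and TRIM63, known from striated muscle, were under 1 CPM in each human cell type.

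Members called in both directions between cell types numbered 5 of the 89, beside 17.5% of the 9191 matched genes: RNF7, RNF40, RNF216, TRIM26 and TRIM71. RNF7, the RING subunit of cullin ligases also called RBX2, was depleted in HEK293T at 6.86 and 6.73 CPM in P-bodies and 21.5 and 19.9 CPM in cytoplasm and enriched in liver bud progenitors at 27.8 and 22.0 CPM in P-bodies and 18.2 and 15.2 CPM in cytoplasm. It was depleted in mESC by -0.63. TRIM26 was depleted in liver bud progenitors by -0.52 and enriched in mESC by 0.31, a value that turned negative with library totals. By contrast 9 members were called nowhere, beside 5.81% of the matched genes: RNF103, RNF122, RNF126, RNF149, RNF150, TRIM11, TRIM32, TRIM44 and TRIM56. Of these, RNF150 was well counted in the human cells, at 43.9 CPM in HEK293T, 24.1 CPM in liver bud progenitors and 72.0 CPM in neurons. Its changes there were 0.22, 0.25 and -0.16. In mESC it stood at only 2.46 CPM, with a change of -0.32. TRIM44 was well counted in each, at 57.5 CPM in HEK293T, 80.4 CPM in liver bud progenitors, 156 CPM in neurons and 76.5 CPM in mESC. TRIM32 differed between the neuron P-body libraries, at 17.8 and 6.23 CPM, and without the first of them its change became -0.83 (edgeR adjusted p = 0.0431) and without the second 0.71 (edgeR adjusted p = 0.0299).

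Between cell types, no library is shared by any pair. Spearman's rho of the log2 change across members of at least 1 CPM in both cell types was 0.76 for HEK293T and neurons (n = 94), 0.67 for neurons and mESC (n = 90), 0.66 for liver bud progenitors and neurons (n = 94), 0.61 for HEK293T and mESC (n = 95), 0.59 for liver bud progenitors and mESC (n = 93) and 0.56 for HEK293T and liver bud progenitors (n = 98). Over all genes the same pairs gave 0.72, 0.57, 0.52, 0.64, 0.48 and 0.44. Genes are not independent replicates, and the base composition shown above is shared by all pairs.

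Neurons and liver bud progenitors share the line and the library kind, so the difference in P-body enrichment between them was tested as an interaction. Of 112 members of at least 1 CPM, 14 had a higher enrichment in neurons and 12 a higher enrichment in liver bud progenitors, beside 12.3% and 12.5% of all genes, a share close to the background in both directions. Library totals gave 23 and 5 and moved the median of all genes by 0.35. The counts depended on single libraries: members higher in neurons fell to 9 without the second liver bud progenitor P-body library or the first neuron cytoplasm library and to 7 without the second neuron cytoplasm library. Members higher in liver bud progenitors rose to 25 and 28 without the first and the second neuron P-body library.

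TRIM71, an NHL protein that represses mRNAs in early development (chr3:32817997-32897824, plus strand, ENSG00000206557.6), had the smallest p. It stood at 728 and 788 CPM in P-bodies and 666 and 698 CPM in cytoplasm of liver bud progenitors, and at 48.7 and 50.5 CPM in P-bodies and 15.3 and 17.1 CPM in cytoplasm of neurons. The difference in log2 change, neurons minus liver bud progenitors, was 1.103 ± 0.117 (SE, edgeR adjusted p = 9.39e-06). TRIM59 had the largest difference of the 8 members named by the rule, 1.66 ± 0.186 (SE, edgeR adjusted p = 1.58e-05), with 126 and 120.2 CPM in P-bodies and 63.7 and 59.99 CPM in cytoplasm of liver bud progenitors. RNF111 differed by 1.16 ± 0.124 (SE, edgeR adjusted p = 1.1e-05). RNF214 stood at 285 and 279 CPM in P-bodies and 124 and 122 CPM in cytoplasm of neurons and at 117 and 118 CPM in P-bodies and 139 and 125 CPM in cytoplasm of liver bud progenitors, a difference of 1.01 ± 0.124 (SE, edgeR adjusted p = 3.65e-05). In all 4 the neuron libraries did not overlap between fractions, while RNF214 had a change of 0.02 ± 0.0762 (SE) in liver bud progenitors.

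In the other direction, RNF187 was depleted at 57.2 and 52.6 CPM in P-bodies and 103 and 97.7 CPM in cytoplasm of neurons, while liver bud progenitors had a change of -0.06 ± 0.108 (SE); the difference was -0.98 ± 0.177 (SE, edgeR adjusted p = 0.00106). RNF13 differed by -1.27 ± 0.234 (SE, edgeR adjusted p = 0.00136), RNF220 by -0.96 ± 0.186 (SE, edgeR adjusted p = 0.00192) and TRIM24 by -0.59 ± 0.107 (SE, edgeR adjusted p = 0.00112), the last lost with library totals. Some markers of other cells differed between these fractions. The 5 neural progenitor genes summed to 1842 and 1814 CPM in neuron P-bodies against 727 and 736 CPM in neuron cytoplasm, all 5 present in each library. This was not particular to neurons: in HEK293T they summed to 1503 and 1568 CPM in P-bodies against 781 and 783 CPM in cytoplasm. In liver bud progenitors the sums were 1035 and 1023 against 752 and 755 CPM. TOP2A and SOX2 were enriched in both of these cell types, while PAX6 was enriched in HEK293T and depleted in liver bud progenitors. TOP2A, at 862 ± 51.5 against 185 ± 14.6 CPM (SD, n = 2), PAX6 and SOX2 were enriched in neuron P-bodies. NES was depleted, at 119 ± 19.4 against 196 ± 2.26 CPM, and VIM stood at 195 ± 38.0 against 203 ± 10.7 CPM and did not pass the test. The 3 pluripotency genes summed to 15.6 and 16.4 CPM in neuron P-bodies against 3.57 and 3.96 CPM in cytoplasm, and the 6 liver bud genes to 8.91 and 6.02 CPM against 3.49 and 2.71 CPM. Their part in the differences of TRIM71, TRIM59, RNF111 and RNF214 was not tested.

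**Figure D4:**
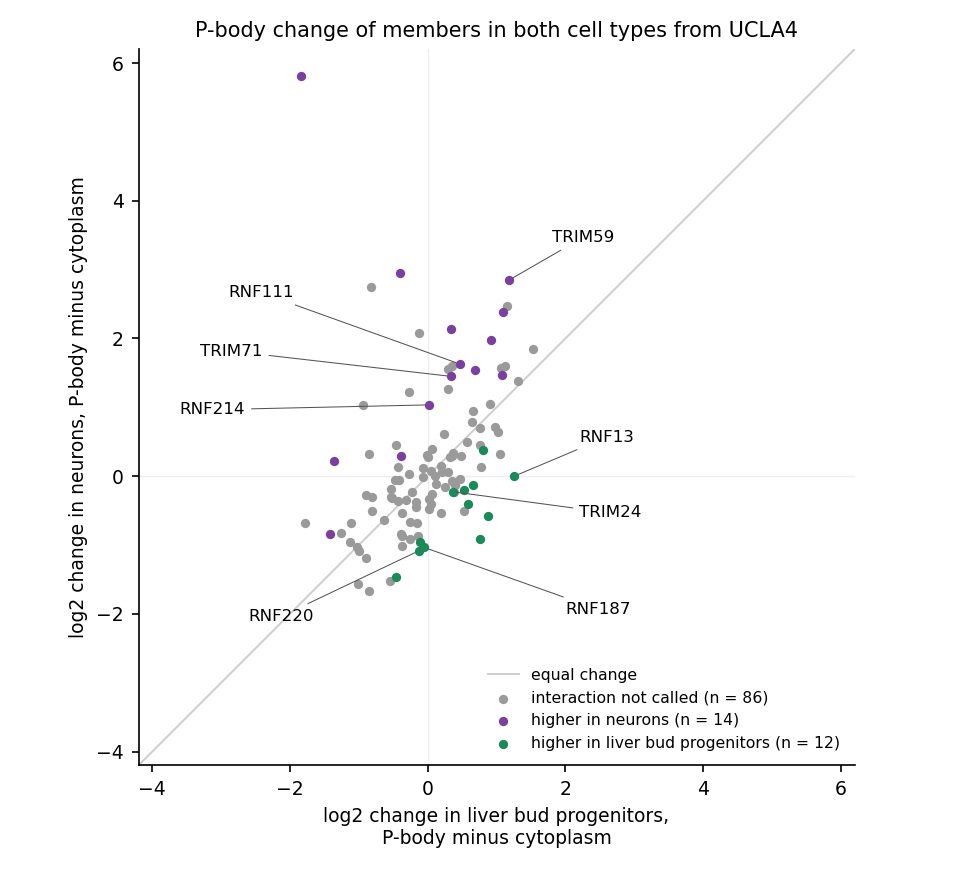
Log2 change, P-body minus cytoplasm, in liver bud progenitors (x axis) and neurons (y axis) for members of at least 1 CPM over the 8 libraries. Each point is a gene, coloured by the edgeR interaction test; the 14 members above the line of equal change and the 12 below it that passed are marked, and the 8 named members are labelled, with TRIM59 at 1.18 and 2.85.

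The cytoplasm levels of the ligases differed widely between the same cells. Of 113 members of at least 1 CPM, 51 passed with the neurons higher and 35 with the progenitors higher, beside 36.7% and 34.8% of all genes. Library totals gave 33 and 47 and moved the median of all genes by -0.37. In bulk libraries fewer cells of a type and less RNA per cell cannot be told apart. TRIM67 stood at 215 and 212 CPM in neuron cytoplasm and 1.099 and 1.74 CPM in liver bud progenitor cytoplasm, a log2 difference of 7.57 ± 0.169 (SE, edgeR adjusted p = 1.37e-51). RNF165, a brain ligase related to RNF111, stood at 225 and 226 CPM in neuron cytoplasm and 2.83 and 4.97 CPM in liver bud progenitor cytoplasm, and RNF157, a ligase of neurons, at 214 and 239 CPM in neuron cytoplasm and 8.79 and 9.26 CPM in liver bud progenitor cytoplasm. RNF24 had a log2 difference of 2.11 ± 0.0976 (SE, edgeR adjusted p = 1.29e-31). All 4 COS box genes of at least 1 CPM, TRIM9, TRIM36, TRIM46 and TRIM67, were higher in neurons.

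Higher in liver bud progenitors were TRIM71 at 15.3 and 17.1 CPM in neuron cytoplasm and 666 and 698 CPM in liver bud progenitor cytoplasm, a log2 difference of -5.01 ± 0.0995 (SE, edgeR adjusted p = 7.11e-55), and TRIM6 at 2.09 and 2.03 CPM in neuron cytoplasm and 78.5 and 83.3 CPM in liver bud progenitor cytoplasm. TRIM38 stood at 0.349 and 0.773 CPM in neuron cytoplasm and 42.7 and 38.8 CPM in liver bud progenitor cytoplasm and RNF217 at 12.8 and 14.4 CPM in neuron cytoplasm and 98.1 and 99.0 CPM in liver bud progenitor cytoplasm. Of the 11 antiviral and innate immune TRIM genes, 10 were higher in liver bud progenitors and 1 in neurons, beside 34.8% and 36.7% of all genes. Their median log2 difference was -1.56. TRIM71 is known as a gene of pluripotent and early cells, and LIN28A, a pluripotency marker, stood at 658 ± 1.27 CPM in liver bud progenitor cytoplasm and 3.17 ± 0.167 CPM in neuron cytoplasm (SD, n = 2).

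**Figure D5:**
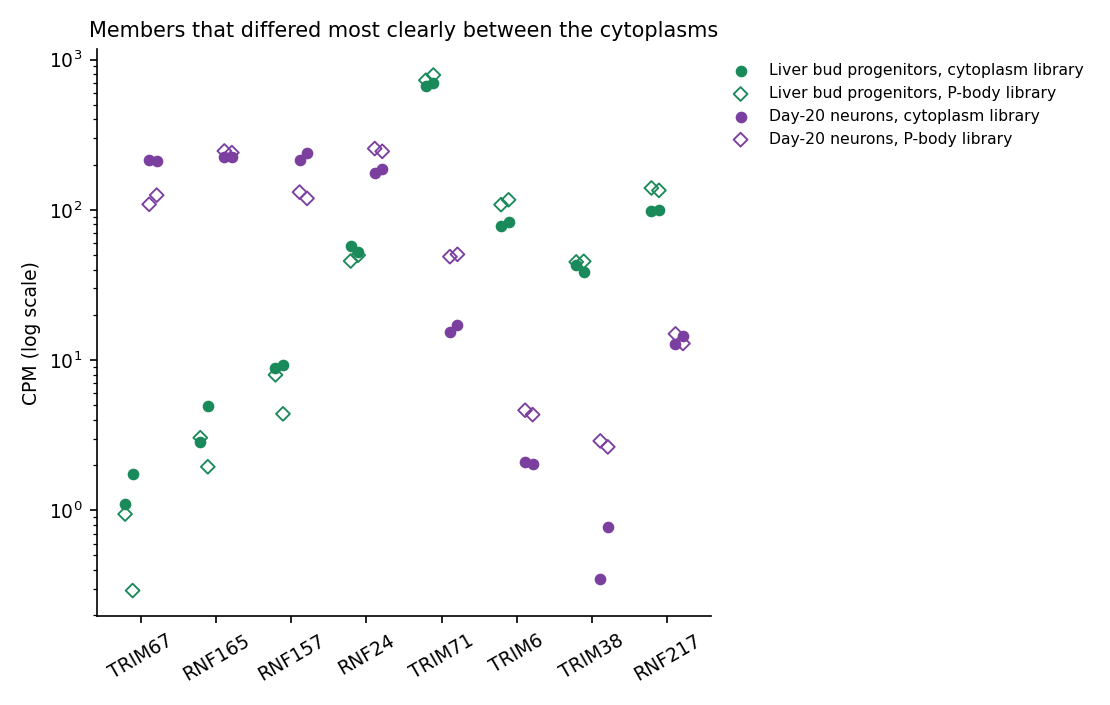
CPM on a log scale (y axis) of the 8 members named for the cytoplasm comparison (x axis) in liver bud progenitors and neurons. Filled circles are cytoplasm and open diamonds P-body libraries, 2 of each; TRIM67, RNF165, RNF157 and RNF24 lie above in neurons, while TRIM71, TRIM6, TRIM38 and RNF217 lie above in liver bud progenitors.

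The NHL group holds the best-known microRNA target among the ligases, since TRIM71 is silenced by let-7 during differentiation. The mature microRNA is shown with its seed (bases 2 to 8) in capitals, from RefSeq on GRCh38.p14, and below it the first match to the seed in the 3′ untranslated region of human TRIM71 (the first of 6, chr3:32891968-32891989, plus strand, hg38) and mouse Trim71 (the first of 4, chr9:114512473-114512494, minus strand, mm10), from GENCODE 44 and M21 with the match in capitals.
hsa-let-7a-5p: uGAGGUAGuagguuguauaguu
TRIM71: aacattgcttaagtcCTACCTC
Trim71: aacattgcctaagtcCTACCTC

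The motif searched was the 7 bases CTACCTC on the transcript strand, in the 3′ untranslated region of the longest coding transcript. It was present in 20.8% of members of at least 1 CPM and 12.7% of all genes in HEK293T, 20.4% and 12.5% in liver bud progenitors, 18.0% and 12.6% in neurons, and 13.6% and 10.8% in mESC. All genes are here those of at least 1 CPM with an annotated coding transcript. In HEK293T 11 of 22 members with the motif were enriched and 4 depleted, with a median of 0.44 against 0.12 without it. The medians were 0.19 and 0.01 in liver bud progenitors, 0.01 and -0.01 in neurons, and 0.28 and 0.25 in mESC. Without the motif 36 of 84 members were enriched and 24 depleted in HEK293T. In liver bud progenitors 9 of 22 members with it and 26 of 86 without it were enriched. The counts were 3 of 20 and 20 of 91 in neurons, the opposite order, and 6 of 14 and 36 of 89 in mESC. Over all genes of at least 1 CPM in HEK293T, 560 of 1502 genes with the motif were enriched and 514 depleted. Medians with and without the motif over all genes were 0.00265 and -0.15 in HEK293T, 0.03 and 0.09 in liver bud progenitors, where the order was opposite to that of members, -0.03 and -0.14 in neurons, and 0.07 and 0.04 in mESC. A match is a description of the sequence and not a bound site.

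TRIM71 itself was enriched in the 3 human cell types and depleted in mESC. In HEK293T it stood at 34.0 and 34.8 CPM in P-bodies and 27.0 and 22.6 CPM in cytoplasm, with a log2 change of 0.60 ± 0.124 (SE) and an edgeR adjusted p = 4.06e-05. In mESC Trim71 stood at 58.9 and 62.9 CPM in P-bodies and 90.3 and 104 CPM in cytoplasm, with a log2 change of -0.28 ± 0.0789 (SE) and an edgeR adjusted p = 0.00604, a call lost without the second mESC cytoplasm library. Of the other NHL genes, TRIM3 was depleted in neurons at 3.59 and 4.65 CPM in P-bodies and 11.1 and 12.5 CPM in cytoplasm, a call lost without the second neuron cytoplasm library, and TRIM32, mutated in a limb-girdle muscular dystrophy, was called in no cell type.

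The ligases can be set beside the rest of the ubiquitin pathway. Of 35 genes for ubiquitin, E1 and E2 enzymes, 8 were enriched and 21 depleted in HEK293T, 15 and 6 in liver bud progenitors, 5 and 14 in neurons, and 13 and 10 of 34 in mESC, with medians of -0.35, 0.35, -0.35 and 0.05. Of all genes of at least 1 CPM, 32% and 38.1%, 32.2% and 24.6%, 20% and 21%, and 33.5% and 20.4% were enriched and depleted in the same order. Their medians were -0.13, 0.04, -0.10 and 0.03. UBA1, the main E1 enzyme, was depleted by -1.18, -0.99, -0.77 and -0.32 in HEK293T, liver bud progenitors, neurons and mESC. UBE2W, an E2 that modifies protein N-termini, was enriched by 1.32, 1.64, 1.32 and 1.55.

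Of 40 RING ligases with other names, 25 were enriched and 10 depleted in HEK293T, 20 and 6 in liver bud progenitors, 21 and 4 in neurons, and 23 and 4 of 38 in mESC. The medians of these other RING ligases were 0.45, 0.31, 0.60 and 0.39, beside 0.23, 0.05, -0.01 and 0.25 for RNF and TRIM members. The shares and medians of all genes given above apply here too. Both lists were chosen with earlier results of these data known, and the part of that choice in the differences was not tested. CNOT4, the ligase attached to the CCR4-NOT deadenylase, was enriched in each cell type, at 508 ± 21.9 CPM in P-bodies against 242 ± 1.68 CPM in cytoplasm (SD, n = 2) in HEK293T. In the interaction, no E1, E2 or ubiquitin gene was more enriched in neurons and 13 of 35 were more enriched in liver bud progenitors, beside 12.3% and 12.5% of all genes, while of the 40 other RING ligases 11 were more enriched in neurons and 5 in liver bud progenitors.

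Per kilobase of the longest transcript, the member with the highest cytoplasm level differed between cell types. It was RNF167 in HEK293T at 72.7 CPM per kilobase, TRIM71 in liver bud progenitors at 78.4, RNF157 in neurons at 44.8 and Trim28 in mESC at 112. In P-bodies on the same scale RNF34 stood at 164 in HEK293T, TRIM71 at 87.1 in liver bud progenitors, RNF214 at 81.2 in neurons and Trim59 at 207 in mESC. RNF213, the giant ATPase linked to moyamoya disease, was the depleted member with the smallest p in liver bud progenitors, at 72.6 and 65.0 CPM in P-bodies and 198 and 221 CPM in cytoplasm, and in mESC, at 145 and 144 CPM in P-bodies and 295 and 273 CPM in cytoplasm. In HEK293T it stood at 34.7 and 41.5 CPM in P-bodies and 44.9 and 53.7 CPM in cytoplasm and did not pass the test.

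Some low members had values near the floor. TRIM10 in neurons stood at 3.24 and 4.01 CPM in P-bodies and 0 and 0.0967 CPM in cytoplasm, where the cytoplasm held 0 and 1 counts, so no fold is given. TRIM17 was depleted in liver bud progenitors at 0.734 and 1.46 CPM in P-bodies and 5.65 and 5.91 CPM in cytoplasm. In neurons it stood at 0.116 and 0.106 CPM in P-bodies and 3.31 and 2.03 CPM in cytoplasm, with 1 count in each P-body library. TRIM58 was depleted in HEK293T at 1.11 and 0.779 CPM in P-bodies and 4.605 and 4.29 CPM in cytoplasm. Members of the TRIM43, TRIM48, TRIM49, TRIM51 and TRIM64 group are near-identical copies, so counts divided among them are uncertain.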

How the data were processed

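A total of 16 libraries of P-body and cytoplasmic RNA was analysed, 2 per fraction in each of 4 cell types. Gene counts, as whole numbers, were deposited by the authors in 1 table on hg38 and 1 on mm10; their methods name nf-core with salmon and refGene for snapTotal-seq and hisat2 with featureCounts for Smart-seq, and which of these made the polyA columns is not given in the sources used here. Every gene held at least 10 counts over its table. Strandedness of the counting is not given in the sources used here. The deposited tables of DESeq2 fold changes and p-values were not used.

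From the counts, CPM was computed on table totals. Differences were tested in R 4.3.3 with edgeR 4.0.16 (TMM normalization, quasi-likelihood F test) on the 4 libraries of a cell type, or on the 8 (interaction) or 4 cytoplasm libraries of liver bud progenitors and neurons. P-values were Benjamini-Hochberg adjusted over all genes tested, with calls at 0.05, and SE is the log2 change divided by the square root of F. CPM ratios and log2 changes differ where TMM factors do. Named members were, per cell type and direction, the 5 called members with the smallest p among those of at least 5 CPM whose libraries did not overlap between fractions; for contrasts between cells, the 4 per direction with the smallest p and at least 5 CPM; members called alike in all 4 cell types; role lists; those nearest 1 CPM; and markers. RNF150, TRIM10, RNF144B, RNF19B and RNF43 and the E2 and RING genes given as examples were chosen after their values were seen where these rules do not name them. Members and lists were chosen with earlier results of these data known. Sequence features came from the longest coding transcript of GENCODE 44 or M21, which matched all members, 20610 of 22286 human and 15506 of 15881 mouse genes; coding windows were printed only for members outside chromosome 8.

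The fits were tested before use on simulated data in which 200 genes per comparison had a log2 change of 1.58, up or down. Of these, 76.5% were recovered in the interaction, 88% in neurons and 97.5% to 100% in the other comparisons, with 16 to 24 false calls. No broad change over many genes was simulated, so the simulation cannot show how the normalization behaves under one. Alternatives were RLE factors, library totals, DESeq2 1.42.0, filterByExpr, a single fit of human libraries, other CPM minimums, the replicate block and leaving out each library. Depth bounds cover counting error only.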

Additional observations from a re-analysis of the deposited data

Results flagged for a closer look

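The change between P-bodies and cytoplasm differed between neurons and liver bud progenitors by the edgeR interaction test for the 8 members named for it. The difference in log2 change, neurons minus liver bud progenitors, was 1.103 for TRIM71, 1.16 for RNF111, 1.66 for TRIM59 and 1.01 for RNF214. It was -0.98 for RNF187, -0.59 for TRIM24, -1.27 for RNF13 and -0.96 for RNF220. Of the neural progenitor markers, TOP2A, PAX6 and SOX2 were enriched and NES depleted in neuron P-bodies. TOP2A and SOX2 were also enriched in HEK293T and liver bud progenitors, while PAX6 was enriched in HEK293T and depleted in liver bud progenitors. Of the pluripotency markers LIN28A was enriched in neuron P-bodies. The part of these markers in the differences above was not tested.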

How the results depend on the processing

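With library totals in place of TMM, depleted members in mESC numbered 34, members more enriched in neurons 23, members more enriched in the progenitors 5, members with higher cytoplasm levels in neurons 33, and members depleted in all 4 cell types 10; the cause was not tested. DESeq2 left 2 depleted in all 4, and a single fit of all human libraries gave 34 depleted in neurons. Settings for the sets called in all 4 cell types were chosen after seeing the data. The direction turned with library totals in mESC for Rnf139 (-0.046), Rnf14 (-0.29), Rnf185 (-0.061), Trim24 (-0.39), Trim26 (-0.092), Trim44 (-0.33) and Trim6 (-0.037), and in neurons for TRIM32 without the first P-body library (leaving out each library gave -0.83 to 0.71).

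Leaving out each library in turn leaves 1 library in a group, which is then assumed to vary like the others. It gave 42 to 45 enriched and 25 to 27 depleted members in HEK293T, 32 to 35 and 17 to 19 in liver bud progenitors, 16 to 34 and 13 to 30 in neurons, and 39 to 41 and 12 to 15 in mESC. The interaction gave 7 to 17 higher in neurons and 8 to 28 higher in liver bud progenitors, cytoplasm 42 to 50 and 30 to 36, and the sets called in all 4 cell types 10 to 15 enriched and 3 to 6 depleted. Of 180 settings over these counts, 166 stayed within 1.5 times the value reported.

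The main fits did not pair libraries by replicate number. Same-numbered deviations correlated at -0.03 to 0.04, which cannot show whether same-numbered fractions came from the same lysate. With the replicate number as a block, the enriched and depleted counts were 47 and 29 in HEK293T, 35 and 22 in liver bud progenitors, 26 and 25 in neurons, and 43 and 15 in mESC, with 15 and 17 in the interaction and 47 and 34 in cytoplasm. With 2 libraries per group, a member that was not called may still differ.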
